A study of Mus musculus with 12 samples.

Results

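The genes described here are 48 genes of cell division and DNA replication, followed in mLTC-1 cells with and without MSNBA. They were chosen by name, as the rows of the count table that carry their symbols, and not by a measured value. Earlier results of these data were known when they were chosen. All 48 were among the 26214 gene symbols of the table. By role, 23 act in DNA replication or in making its nucleotides, 6 are cyclins and kinases of the passage from G1 into S phase, and 19 act in mitosis or mark dividing cells. Of the 48, 22 had enough counts to be tested one by one and 26 did not.

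mLTC-1 is an established mouse Leydig tumour line. Leydig cells lie between the seminiferous tubules of the testis and make androgens. MSNBA is an inhibitor of the fructose transporter Glut5. There were 6 control libraries, from cells given the solvent DMSO, and 6 libraries from cells given 100 µM MSNBA, each for 24 h before RNA was taken. All were polyA RNA from the same line, grown in RPMI medium with 10% fetal bovine serum, and no genotype or strain differed between the groups. The series asks what blocking Glut5 does to the metabolism and androgen output of these cells. The labels do not say whether the 6 libraries of a group came from separate cultures, and if they did not, the p-values reflect technical spread alone.

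Cells copy their DNA once per cycle, and the genes for doing so are switched on before and during S phase, largely through E2F transcription factors that are released when cyclin D kinases inactivate the retinoblastoma protein. Genes for chromosome segregation are switched on later, in G2 and M phase, through complexes that read a CHR element, often beside CCAAT boxes bound by NF-Y. RNA of both sets is therefore abundant where cells divide, as in tumour lines, and scarce in adult Leydig cells, which rarely divide. In bulk RNA, fewer cells in a phase and less RNA per cell cannot be told apart.

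The libraries were shallow and of unequal depth. Total counts ran from 59113 to 657251, and the MSNBA libraries were 2.14-fold deeper than the controls by geometric mean. All 9 Leydig markers of the fixed list were detected well enough to be tested, and their summed level was 8037 to 11359 CPM (counts scaled by the library total) in the control libraries and 7980 to 9882 in the MSNBA libraries. No marker of macrophages, Sertoli cells, endothelium, fibroblasts or germ cells had enough counts to be tested, and each list of 8 markers had few counts. Summed over the control and then the MSNBA libraries, macrophage markers had 16 and 22 counts, Sertoli markers 59 and 105, endothelial markers 10 and 18, fibroblast and peritubular markers 55 and 76, and germ cell markers 51 and 72. Most Sertoli counts were of Dhh (28 and 60) and Gata1 (21 and 27). Of all 40 markers, Cd14, Tie1 and Cldn5 were at 0 in every library, and the part of the others in the results was not tested.

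The promoters of the replication and the mitosis members were set side by side. Their letters can be compared without use of any expression value. The sequences are RefSeq promoter windows of build GRCm38.p6, each running from 250 bases before to 50 bases after a transcription start, and motifs were sought on both strands. The E2F type motif was any of TTTCCCGC, TTTCGCGC, TTTGCCGC and TTTGGCGC, which can overlap one another on opposite strands. It stood in 9 of the 19 replication genes with a window (47.4%), namely Mcm3, Mcm5, Mcm6, Mcm7, Pola1, Pold1, Lig1, Cdc6 and Cdt1. Only Cdk1 had it among the 16 mitosis genes with a window (6.25%), and Cdk2 among 4 regulators of the G1 to S passage. Of the genes tested in the count table that had a window, 5.28% held it, as did 2.27% of all 32851 windows.

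The mitosis members more often had other letters. The CHR type motif, TTTGAA or TTCGAA, stood in 13 of 16 mitosis genes (81.2%), all but Ccnb1, Birc5 and Cks2, against 3 of 19 replication genes (15.8%), 15.7% of the tested genes and 19.2% of all windows. CCAAT stood in 15 of 16 mitosis genes (93.8%), all but Birc5, against 10 of 19 replication genes (52.6%), 45.4% of the tested genes and 37.4% of all windows. The contrast was weaker in longer lists of other cell cycle genes. Of 45 further replication genes with a window, 26.7% held an E2F type motif, 26.7% a CHR type motif and 51.1% CCAAT. Of 61 further mitosis genes with a window, the shares were 9.84%, 50.8% and 57.4%. A match is a description of the letters and not evidence of binding. Mcm4, Gins2, Rfc2, Pole, Ccnd1, Ccnd2, Ccna2, Aurkb and Tpx2 had no window in the table used.

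**Figure D1:**
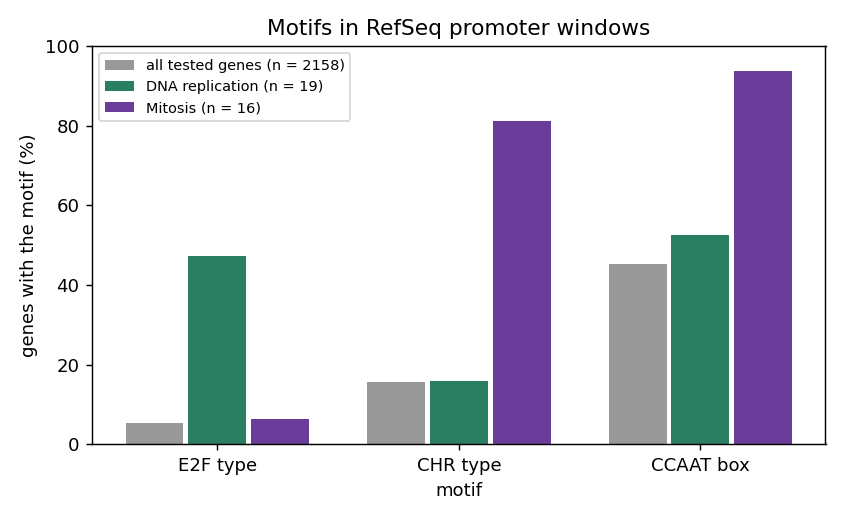
Percent of genes with each motif in a promoter window (vertical axis) for each motif type (horizontal axis), in the replication and mitosis members and in all genes tested in the count table. The E2F type bar is highest for replication members (47.4%), and the CHR type and CCAAT bars are highest for mitosis members (81.2% and 93.8%).

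Stretches from upstream of the start are shown for 5 tested members, 5′ to 3′ on the gene's strand, as the members highest in mean count whose motif lies in the stretch. Each stretch begins 250 bases before the RefSeq start and stops where the annotated gene begins in RefSeq or GENCODE, so the last bases before the RefSeq start are left out in all but Mcm6 (41 in Mcm5, 10 in Top2a, 9 in Cdc20 and 26 in Cdk1). In the first set, the E2F type motifs are in capitals in the replicative helicase genes Mcm6 (chr1:128359706-128359955, minus strand) and Mcm5 (chr8:75109259-75109467, plus strand):
Mcm6: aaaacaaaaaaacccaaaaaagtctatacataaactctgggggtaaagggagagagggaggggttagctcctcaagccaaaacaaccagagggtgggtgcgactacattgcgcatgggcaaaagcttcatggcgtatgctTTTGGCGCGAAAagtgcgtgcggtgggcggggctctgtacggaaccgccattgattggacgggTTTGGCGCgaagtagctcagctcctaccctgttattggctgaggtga
Mcm5: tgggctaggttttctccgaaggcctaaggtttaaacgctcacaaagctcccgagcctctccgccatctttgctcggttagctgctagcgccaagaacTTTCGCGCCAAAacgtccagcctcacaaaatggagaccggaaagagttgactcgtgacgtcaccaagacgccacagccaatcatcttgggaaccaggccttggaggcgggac

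In Mcm5 and at the first site of Mcm6 the capitals are a pair of overlapping matches on opposite strands. The corresponding stretches of 3 mitosis genes carry the CHR type motifs in capitals. They are the DNA topoisomerase gene Top2a (chr11:99024200-99024439, minus strand), Cdc20, which activates the anaphase-promoting complex (chr4:118437353-118437593, minus strand), and the mitotic kinase gene Cdk1 (chr10:69352939-69353162, minus strand):
Top2a: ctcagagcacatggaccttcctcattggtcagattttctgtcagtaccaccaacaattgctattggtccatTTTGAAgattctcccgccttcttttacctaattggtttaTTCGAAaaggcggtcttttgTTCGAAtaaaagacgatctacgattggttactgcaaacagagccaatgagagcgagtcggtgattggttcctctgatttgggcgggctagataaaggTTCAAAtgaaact
Cdc20: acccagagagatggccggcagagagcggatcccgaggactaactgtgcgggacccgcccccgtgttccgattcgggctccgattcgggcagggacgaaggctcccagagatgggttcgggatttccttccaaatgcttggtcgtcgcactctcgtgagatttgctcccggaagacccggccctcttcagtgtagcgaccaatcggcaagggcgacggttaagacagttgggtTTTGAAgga
Cdk1: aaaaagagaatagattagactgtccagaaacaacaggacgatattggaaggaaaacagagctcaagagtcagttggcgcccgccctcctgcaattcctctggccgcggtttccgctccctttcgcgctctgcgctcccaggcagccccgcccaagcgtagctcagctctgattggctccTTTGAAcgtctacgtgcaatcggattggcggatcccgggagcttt

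Top2a had 4 CHR type matches in 240 bases, with 6 CCAAT boxes in either orientation around them. Cdc20 had a single CHR type match 18 bases before its start. Cdk1 had a match 71 bases before its start, in the stretch shown, and another 15 bases before it, which is not in that stretch. Cdc20 likewise had a CCAAT box 8 bases before its start that is not shown.

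The expression of these genes was then compared between 100 µM MSNBA and control. No member differed between the groups by the test. None of the 22 tested members passed an adjusted p of 0.05 (edgeR quasi-likelihood test, Benjamini-Hochberg over 2614 genes), where 0.0765% of all tested genes did, which is 2 genes, both lower with MSNBA. None had an unadjusted p under 0.05, against 8.95% of all tested genes. No member's 6 MSNBA values lay wholly above or below its 6 control values, against 0.65% of all tested genes. Of the 22 members, 11 had a log2 fold change above 0 and 11 below. The 95% interval of the log2 fold change lay within -1 and 1 for 21 of the 22, all but Rrm2, and for 94.5% of all tested genes. Changes smaller than those intervals were not detectable at this depth. Depth and treatment moved together. With log2 depth as a covariate no member passed after adjustment, 1 of the 22 (Tk1) had an unadjusted p under 0.05, against 8.88% of all tested genes, and the medians went to -0.041 for replication and -0.34 for mitosis.

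**Figure D2:**
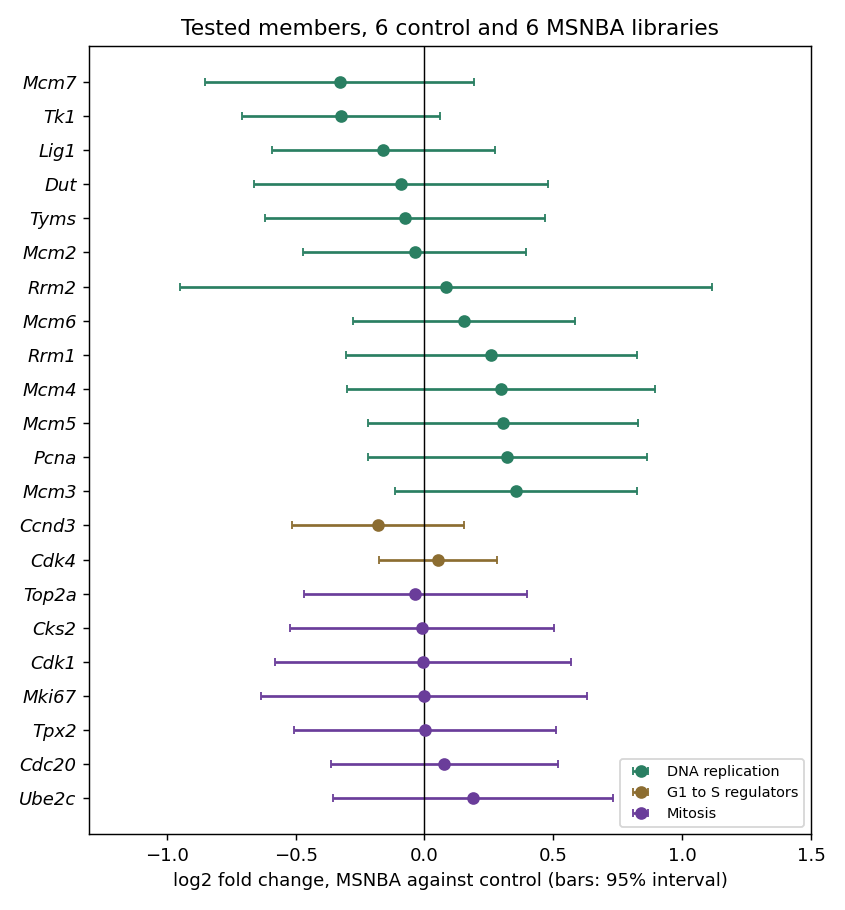
Log2 fold change (MSNBA over control, horizontal axis) of each of the 22 tested members with its 95% interval, by role group. Every interval includes 0, and that of Rrm2, from -0.95 to 1.12, is the widest.

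Replication genes came first by role, and 13 of 23 were tested. Their log2 fold changes ran from -0.33 to 0.35, with 7 above 0 and 6 below and a median of 0.085, beside -0.0082 over all tested genes. Levels below are normalized CPM, that is CPM of the tested genes' counts after scaling by TMM factors, and each group has 6 libraries.

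The MCM proteins form the ring helicase that is loaded at origins and unwinds DNA. Mcm3 had 43.3, 116 and 160.3 CPM as lowest, median and highest control value and 122, 141 and 207 with MSNBA. The controls spanned the wider range and the groups overlapped. Mcm3 had the highest log2 fold change of the group, 0.35 ± 0.23 (SE; 95% interval -0.12 to 0.82; adjusted p = 0.639, edgeR), from 111 ± 46.0 to 151 ± 32.2 CPM (SD, n = 6). Mcm7 had the lowest, -0.33 ± 0.26 (SE; 95% interval -0.85 to 0.19; adjusted p = 0.728, edgeR), with 31.2, 104 and 163 CPM in controls and 67.1, 93.0 and 138 with MSNBA. All 6 MSNBA values of Mcm7 lay inside the control range. Subunits of the same ring thus stood at both ends of the group, and neither end passed the test.

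Mcm2 had 116, 174 and 325 CPM in controls and 143, 159.6 and 230.4 with MSNBA, and its log2 fold change was -0.038 ± 0.21 (SE; 95% interval -0.47 to 0.39; adjusted p = 0.976, edgeR). Its highest control value was that of control 5, the shallowest library, which had 15 Mcm2 counts. Mcm6 had the smallest fitted variation between libraries of the 22 members (biological coefficient of variation 0.0947), with 99.3, 134 and 172 CPM in controls and 119, 146 and 177 with MSNBA, and gave 0.15 ± 0.21 (SE; 95% interval -0.28 to 0.59; adjusted p = 0.873, edgeR). Mcm4 and Mcm5 both gave 0.30, with adjusted p-values of 0.798 and 0.757 by edgeR. Of the 6 ring subunits, 4 had a value above 0 and 2 below.

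At the fork, Pcna encodes the sliding clamp that holds DNA polymerases on their template. It had 16.0, 89.5 and 149 CPM in controls and 67.8, 111 and 142 with MSNBA, and the lowest value, in control 4, rests on 1 count. Its log2 fold change was 0.32 ± 0.27 (SE; 95% interval -0.22 to 0.86; adjusted p = 0.751, edgeR). Lig1, the ligase that seals Okazaki fragments, had 86.7, 173 and 264 CPM in controls and 94.9, 176 and 220.3 with MSNBA, with a log2 fold change of -0.16 ± 0.21 (SE; 95% interval -0.59 to 0.27; adjusted p = 0.866, edgeR). All 6 MSNBA values of both genes lay inside the control range.

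Among the enzymes that supply DNA nucleotides, Tk1, the cytosolic thymidine kinase of S phase, had the smallest p of all 22 members. Tk1 (mm10, chr11:117815519-117826087, minus strand) had 182, 239 and 296 CPM in controls and 108, 194 and 236 with MSNBA. The MSNBA values of libraries 4, 5 and 6 lay below every control value and the other 3 lay among the controls, so the groups overlapped. Its log2 fold change was -0.32 ± 0.19 (SE; 95% interval -0.71 to 0.061; adjusted p = 0.605, edgeR), from 235 ± 39.1 to 183 ± 50.6 CPM (SD, n = 6). With log2 depth as a covariate it was -0.56 (adjusted p = 0.467, edgeR). Tyms, thymidylate synthase, gave -0.076 and Dut, which removes dUTP, gave -0.091, with adjusted p-values of 0.960 and 0.957 by edgeR. Dut had no count in control 2.

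Ribonucleotide reductase, which makes deoxyribonucleotides, has a large subunit encoded by Rrm1 and a small subunit encoded by Rrm2. Rrm1 gave 0.26 ± 0.28 (SE; adjusted p = 0.825, edgeR). Rrm2 (mm10, chr12:24708254-24714146, plus strand) had 80.2, 345 and 666 CPM in controls and 134, 467 and 559.5 with MSNBA. Its mean was 349.7 ± 226 CPM in controls and 386 ± 188 with MSNBA (SD, n = 6), and the log2 fold change was 0.085 ± 0.47 (SE; 95% interval -0.95 to 1.12; adjusted p = 0.976, edgeR). The SD within each group was several times the difference between the means. The log2 fold change was 0.47 without control 1, -0.087 without control 4 and -0.51 with log2 depth as a covariate. The fitted variation of Rrm2 between libraries was 0.602, against a median of 0.130 over all tested genes, and 3 of the 2614 genes had a higher one. The next member, Mki67, had 0.191.

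**Figure D3:**
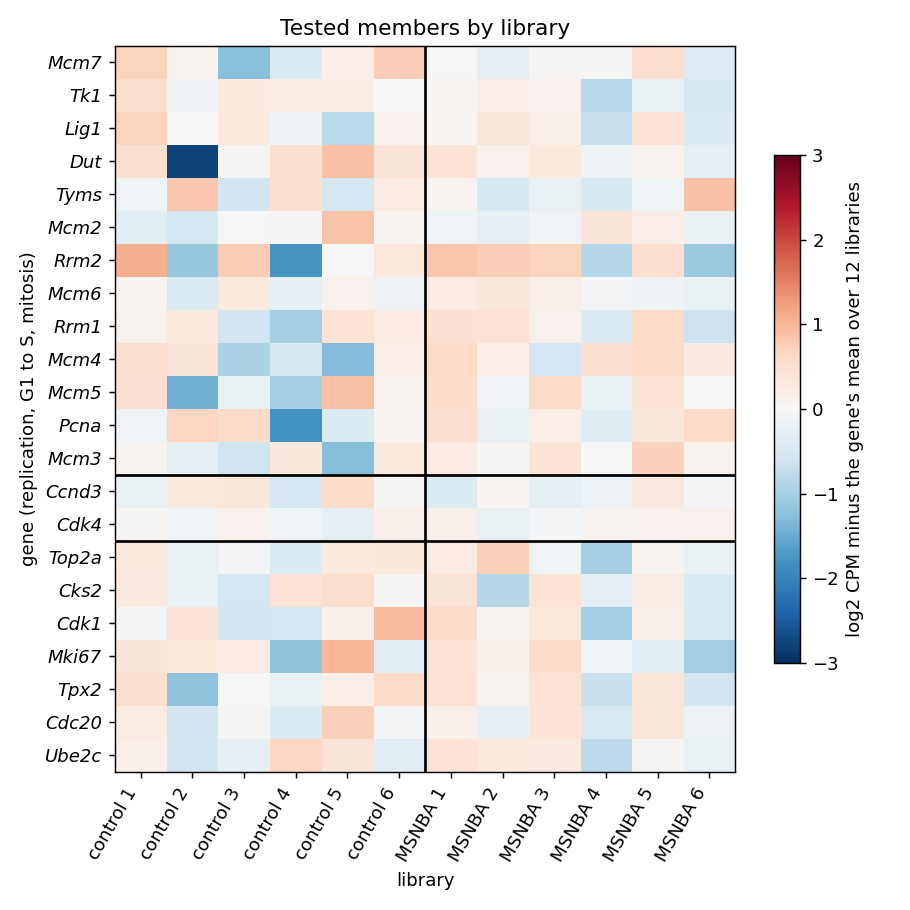
Log2 normalized CPM of each tested member (rows) in each of the 12 libraries (columns), relative to that member's mean over the libraries, as the colour scale (blue below, red above the mean). Rrm2 is low in controls 2 and 4 and in MSNBA 4 and 6, the darkest square is Dut in control 2, which had no count, and no row separates the control from the MSNBA columns.

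Regulators of the passage from G1 to S phase are cyclins D and E with the kinases Cdk4 and Cdk2, which together phosphorylate the retinoblastoma protein. Of these 6 genes, 2 were tested, and their median log2 fold change was -0.064. Cdk4 (mm10, chr10:127063535-127067288, plus strand) had 823, 960.0 and 1106 CPM in controls and 852, 1062 and 1095 with MSNBA, and all 6 MSNBA values lay inside the control range. Its log2 fold change was 0.052 ± 0.11 (SE; 95% interval -0.18 to 0.28; adjusted p = 0.921, edgeR), the narrowest interval of any member. Ccnd3, cyclin D3 (mm10, chr17:47505051-47599689, plus strand), had 305, 500.1 and 650.0 CPM in controls and 328, 413 and 537 with MSNBA, again inside the control range, with -0.18 ± 0.16 (SE; 95% interval -0.51 to 0.15; adjusted p = 0.778, edgeR).

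The D cyclins were very unequal in these cells. Per kilobase of exon and over all 12 libraries, Ccnd3 had 84.9 counts, Ccnd1 1.49 and Ccnd2 1.27, from 745, 7 and 12 counts in all. Whether counts scale with exon length here is not known, and by counts alone Ccnd2 stood above Ccnd1. Ccnd1 had 4 counts in controls and 3 with MSNBA, and Ccnd2 had 7 and 5, so no difference in either could be detected at this depth. Cdk2 had 13 counts in controls and 52 with MSNBA, a ratio of CPM of 1.70 (95% counting interval 0.913 to 3.41). Ccne1, cyclin E1, had 17 and 40 counts, a ratio of 1.00.

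In the mitosis group, 7 of 19 genes were tested. They had log2 fold changes from -0.036 to 0.19, with 3 above 0 and 4 below, a median of -0.0036 and adjusted p-values from 0.876 to 0.998 by edgeR. This span was narrower than that of the replication group, and the difference between the spans was not tested. With log2 depth as a covariate, all 7 lay below 0, from -0.46 (Cdk1) to -0.084 (Cdc20), with a median of -0.34. None of the 7 then passed after adjustment.

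Cdk1 is the kinase whose activity with cyclin B drives entry into mitosis. It had 62.4, 102 and 197 CPM in controls and 40.7, 106 and 150.4 with MSNBA, and gave -0.0058 ± 0.28 (SE; 95% interval -0.58 to 0.57; adjusted p = 0.998, edgeR). Cks2, a small protein that binds cyclin-dependent kinases, had 78.0, 131 and 173 CPM in controls and 59.1, 116 and 159.6 with MSNBA, and gave -0.0081 ± 0.25 (SE; 95% interval -0.52 to 0.50; adjusted p = 0.998, edgeR). Both ranges overlapped over most of their length.

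Top2a separates intertwined sister DNA and Mki67 encodes the Ki-67 antigen used to stain dividing cells. Top2a had 128, 194 and 223 CPM in controls and 81.3, 173 and 295 with MSNBA, so both the lowest and the highest library were treated ones. Its log2 fold change was -0.036 ± 0.21 (SE; 95% interval -0.47 to 0.40; adjusted p = 0.978, edgeR). Mki67 had 32.1, 112 and 195 CPM in controls and 37.3, 91.3 and 138 with MSNBA, all inside the control range, and gave -0.0036 ± 0.31 (SE; 95% interval -0.64 to 0.63; adjusted p = 0.998, edgeR).

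Cdc20 and Ube2c serve the anaphase-promoting complex, the ubiquitin ligase that starts anaphase and destroys cyclin B, Cdc20 as its activator and Ube2c as its ubiquitin-conjugating enzyme. Cdc20 had 99.3, 151 and 260.0 CPM in controls and 108, 153 and 207 with MSNBA, with 0.078 ± 0.22 (SE; 95% interval -0.36 to 0.52; adjusted p = 0.952, edgeR). Ube2c had 49.6, 76.1 and 128 CPM in controls and 40.7, 90.3 and 112 with MSNBA, with 0.19 ± 0.27 (SE; 95% interval -0.35 to 0.73; adjusted p = 0.876, edgeR). Tpx2, which targets Aurora A kinase to spindle microtubules, had 33.1, 101 and 146 CPM in controls and 54.2, 113 and 131 with MSNBA, with 0.0039 ± 0.25 (SE; 95% interval -0.50 to 0.51; adjusted p = 0.998, edgeR). In each of the 3 genes the control range held all or nearly all of the MSNBA values.

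The 26 members that were not tested had 7 to 173 counts each over all 12 libraries, and all had counts in both groups. Their pooled counts were divided by the pooled library totals, and the ratio of MSNBA to control CPM was given an exact counting interval, which covers counting error only and leaves out the spread between libraries. Pooling gives deep libraries more weight, most of all control 1 (234225 counts) and MSNBA 1 (657251 counts). The ratio ran from 0.304 to 2.30 with a median of 1.09, and its 95% interval included 1 for 25 of the 26. The exception was Cdt1. No share over all untested genes by this interval is given here. The counts of members by this interval, in all and by role, therefore have no background beside them.

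Cdt1 is the licensing factor that loads the MCM ring onto origins and is degraded once S phase begins. The gene lies at chr8:122568015-122573130 of mm10, on the plus strand. It had 17 counts in the controls and 92 with MSNBA, or 25.0 against 57.6 CPM, a ratio of 2.30 (95% counting interval 1.36 to 4.12). The controls 1 to 6 had 21.3, 38.9, 23.8, 37.6, 16.9 and 20.6 CPM, and the MSNBA libraries 1 to 6 had 66.9, 66.4, 49.6, 74.3, 44.0 and 34.9 CPM. MSNBA 6 lay below controls 2 and 4, and the other 5 MSNBA libraries lay above every control. Each control value rests on 1 to 5 counts.

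Cdt1 did not pass any adjusted threshold. In the edgeR fit with no filter on low counts its log2 fold change reached 1.27 ± 0.39 (SE), at an adjusted p of 0.286, and leaving out each library in turn gave 1.11 to 1.37. That fit was shifted upward for other genes too. Its median over the genes tested in the main comparison was 0.14, against -0.0082 in the main fit. For Cdt1, DESeq2 gave 1.13 ± 0.46 (SE; adjusted p = 0.999). It is singled out here after its values were seen. Without the filter, 3 of the 48 members had an unadjusted p under 0.05, which is 6.25%, against 6.96% of 19576 genes. The other 2 were Mcm3 and Prim1, and no member passed the adjusted threshold, which 0.0766% of genes did. By DESeq2, Cdt1 alone of the 48 had an unadjusted p under 0.05, against 2.01% of genes, and neither a member nor any other gene passed after adjustment (0%). By limma-voom none of the 22 had an unadjusted p under 0.05, against 9.91% of genes, and again 0% passed after adjustment. The members' shares were close to or below the background in each of these fits.

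Cdc6, which works with Cdt1 at origins, had 8 and 15 counts in control and MSNBA libraries, a ratio of 0.797. Gins2, of the active helicase, had 18 and 44 counts, a ratio of 1.04. The clamp loader genes Rfc2 and Rfc4 had ratios of 1.48 and 1.21. Among polymerase genes Pola1 had a ratio of 1.13, Pold1 1.09 and Pole 0.792, and Prim1, the primase subunit, had 20 and 77 counts, a ratio of 1.64 (95% counting interval 0.991 to 2.83). Fen1, the flap nuclease of Okazaki fragments, had 5 and 19 counts, a ratio of 1.62 (95% counting interval 0.584 to 5.54). Of the 10 untested replication genes, the intervals of 9 included 1.

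The 12 untested mitosis genes had ratios from 0.458 to 1.34, and every interval included 1. The cyclins that activate Cdk1 had ratios of 1.14 (Ccna2), 1.07 (Ccnb1) and 1.09 (Ccnb2). The mitotic kinase genes Aurka, Aurkb and Plk1 had 0.815, 1.34 and 1.09. The spindle checkpoint genes Bub1 and Bub3 had 1.09 and 1.16, and Cenpa, the centromeric histone, had 1.08. Birc5, the survivin subunit that works with Aurora B, had 47 and 79 counts, a ratio of 0.715 (95% counting interval 0.492 to 1.05). Cks1b, the paralogue of Cks2, had 43 and 101 counts, a ratio of 0.999 (95% counting interval 0.692 to 1.46). The lowest ratio was that of Kif11, the motor that pushes spindle poles apart, with 13 and 14 counts and 0.458 (95% counting interval 0.200 to 1.06).

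Summing the members of a role used every gene, tested or not, as CPM of the library total. The 23 replication genes summed to 1726 ± 349 CPM in controls and 1845 ± 384 with MSNBA (SD, n = 6). The 6 regulators of the G1 to S passage summed to 1200.4 ± 118 and 1217 ± 94.9 CPM. The 19 mitosis genes summed to 1193 ± 337 and 1161 ± 323 CPM. Pooled over the libraries of a group instead, the mitosis genes had 1274 CPM in controls and 1323 with MSNBA, the other direction. In each of the 3 roles the difference between the group means was smaller than the SD of either group.

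**Figure D4:**
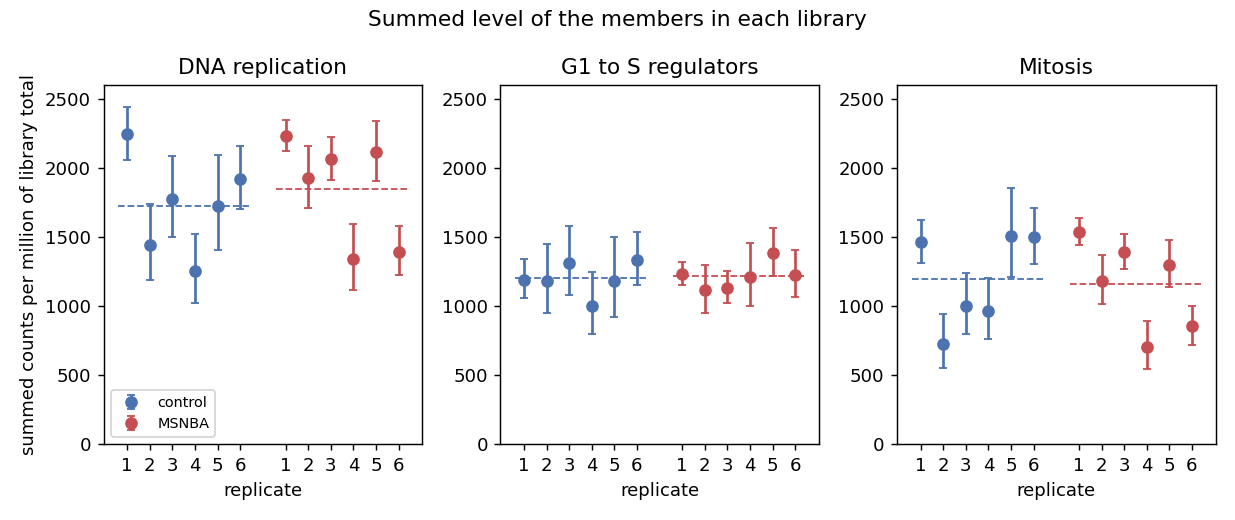
Summed CPM of library total for the members of each role in each library, with exact 95% counting intervals as bars and the group mean as a dashed line. The mitosis sum ranges from 727 to 1506 CPM in controls and from 701 to 1537 with MSNBA, so libraries differ within a group far more than the group means do.

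Variation within the groups was large for mitosis. Controls 1 to 6 had mitosis sums of 1460.1, 727, 1000.2, 965, 1506 and 1498 CPM, and MSNBA libraries 1 to 6 had 1537, 1182, 1393, 701, 1299 and 854 CPM. The counting interval of MSNBA 4, the lowest, was 542 to 892 CPM, and that of MSNBA 1, the highest, was 1443 to 1634 CPM. These intervals do not meet.

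The same libraries were low in more than 1 role. Controls 2 and 4 and MSNBA 4 and 6 were the 4 lowest of 12 in Rrm2, the 4 lowest in the mitosis sum and the 4 lowest in the replication sum without Rrm2. The order is not sharp at its edge in any of the 3 measures. In the mitosis sum, control 3 (1000.2 CPM) lay within the counting interval of control 4. In the replication sum without Rrm2, controls 3, 5 and 6 and MSNBA 2 lay within that of control 2 (1091 to 1622 CPM). In Rrm2, the counting interval of control 5 (129 to 397 CPM) met those of all 4 low libraries. For the G1 to S sum, 2 of those 4 were among the 4 lowest. For library depth, 2 of them were among the 4 shallowest. Counted from the shallowest, controls 2 and 4 ranked 2 and 3 of 12, MSNBA 4 ranked 5 and MSNBA 6 ranked 8. The deepest library, MSNBA 1, was the highest in the mitosis sum and in the replication sum without Rrm2. The shallowest library, control 5, was the second highest of the 12 in the mitosis sum. With 2 of the 4 low libraries in each group, they did not line up with the treatment. This pattern was noticed in the data, and its relation to depth or to culture conditions was not tested.

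As CPM of the library total, Rrm2 had 538, 104, 405, 62.7, 237 and 309 in controls 1 to 6 and 464, 412, 397, 127, 352 and 105 in MSNBA libraries 1 to 6. The counting interval of control 4 was 20.4 to 146 CPM on 5 counts and that of control 1 was 448 to 640.5 CPM on 126 counts, so they do not meet. Cdkn1a, the p21 inhibitor of cyclin-dependent kinases, is no member and was looked at after its values were seen. It had 81.1, 286, 107, 100.3, 33.8 and 61.8 CPM in controls and 79.1, 113, 117, 255, 71.6 and 221 with MSNBA. Control 2 and MSNBA 4 and 6 were its 3 highest libraries, while control 4 was not high. Cdkn1a did not differ by treatment in the test (log2 fold change 0.25 ± 0.49, SE; adjusted p = 0.914, edgeR).

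**Figure D5:**
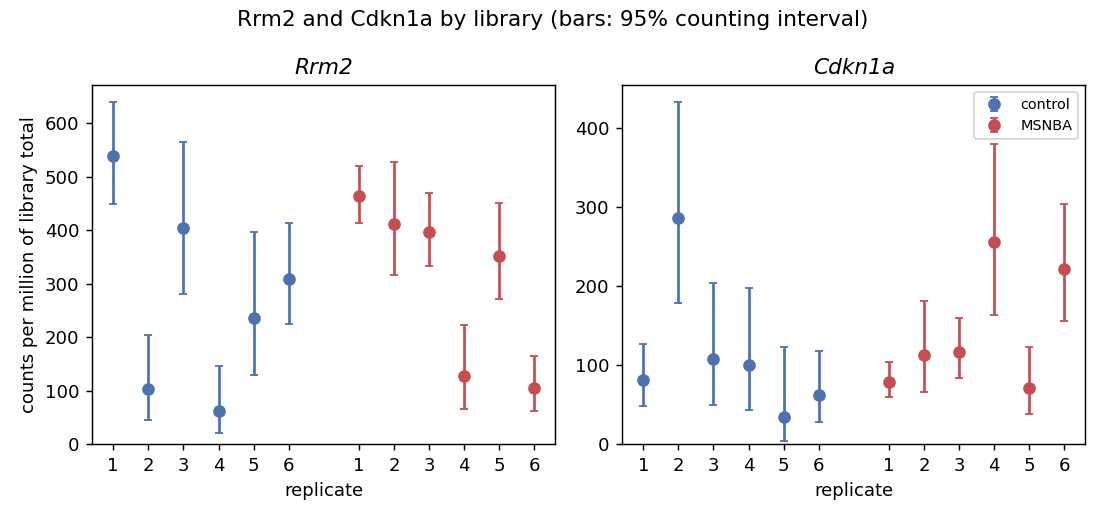
CPM of library total for Rrm2 and Cdkn1a in each of the 12 libraries, with exact 95% counting intervals. Control 2, MSNBA 4 and MSNBA 6 are low in Rrm2 and highest in Cdkn1a, and control 4 is low in Rrm2 (62.7 CPM) without a high Cdkn1a value (100.3 CPM).

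Ddit3, a stress-response transcription factor gene, is no member and stands in none of the fixed lists. It was taken up with its variation between these libraries known. It had 649, 2259, 417, 1229, 508 and 653 CPM in controls and 968, 989, 1238, 1253, 743 and 1847 with MSNBA. By normalized CPM its 4 highest libraries were control 2, MSNBA 6, MSNBA 4 and control 4, which are the 4 low in Rrm2, and by CPM of the library total the first 3 of these were its 3 highest. Its part in the levels of the members was not tested.

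Other genes of the cell cycle, from lists fixed beside the members, also had none past the adjusted threshold. Of 54 further replication genes 11 were tested, with 5 log2 fold changes above 0 and 6 below, a median of -0.045, and none with an unadjusted p under 0.05. The smallest p-values were those of Nme1, a nucleoside diphosphate kinase (0.38 ± 0.20, SE; adjusted p = 0.571, edgeR), Pola2, of the polymerase alpha complex (-0.31 ± 0.17, SE; adjusted p = 0.589, edgeR), and Rfc1, a clamp loader subunit (0.29 ± 0.24, SE; adjusted p = 0.738, edgeR). Of 73 further mitosis genes 22 were tested, 12 above 0 and 10 below, with a median of 0.038.

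One of those mitosis genes, Ube2s, had an unadjusted p under 0.05. Ube2s extends ubiquitin chains for the anaphase-promoting complex, and it had 2164 ± 302 CPM in controls and 1755 ± 297 with MSNBA (SD, n = 6), with -0.30 ± 0.11 (SE; adjusted p = 0.376, edgeR). Tubb4b, a tubulin, and Anapc2, a subunit of that complex, gave -0.35 and 0.49, with adjusted p-values of 0.554 and 0.583 by edgeR. Of 52 cell cycle regulators 9 were tested, 6 above 0 and 3 below, with a median of 0.083. Rbx1, of the cullin ubiquitin ligases, had 319 ± 62.5 CPM in controls and 436 ± 81.0 with MSNBA (SD, n = 6), with 0.42 ± 0.16 (SE; adjusted p = 0.384, edgeR). Cdkn1b, the p27 inhibitor, and Skp1 gave 0.38 and -0.24, with adjusted p-values of 0.629 and 0.713 by edgeR. Ube2s and Rbx1 were the only tested genes of these 3 lists with an unadjusted p under 0.05, which 8.95% of all tested genes had.

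Some members share exon sequence with a neighbouring gene, and whether the counting used strand is not given in the sources used here. This concerns 15 of the 48, and for 10 of them the neighbour had at least 10% of the member's counts. Counts of Cdk4 (1880 in all) may include reads of Tspan31 (464), those of Ccnd3 (745) reads of Bysl (332), those of Tk1 (392) reads of Afmid (109), those of Cdc20 (307) reads of Elovl1 (261) and those of Mcm7 (186) reads of Cops6 (267). Among low members, Fen1 had 24 counts beside 528 of Tmem258, and Rfc4 had 50 beside 202 of Eif4a2. The levels of these genes are uncertain to that extent.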

How the data were processed

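Poly(A) RNA of 12 libraries was sequenced. The deposited table holds raw counts per gene symbol made by the authors. Its name points to molecular identifiers and RefSeq genes, which no label explains, so intervals cover counting error only. Per the submitters' processing notes, reads were aligned with BWA 0.7.4.4 to mm10. The counting tool is not given in the sources used here, nor is the use of strand. Library totals were 59113 to 657251 counts, and low totals limit how small a difference can be seen.

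Genes were filtered with filterByExpr (edgeR 4.0.16), leaving 2614 of 19576 genes with a count and 79.2% of counts, and normalized by TMM. MSNBA was tested against control by the robust quasi-likelihood F test with no covariate, and p-values were adjusted by the Benjamini-Hochberg method over all tested genes at 0.05. The standard error is the fold change divided by the square root of F, and intervals are at 95%. Untested members were pooled by group with exact Poisson intervals. Libraries were compared for duplicates by a chi-square test of counts, and every pair differed (smallest chi-square per degree of freedom 1.15). Alternatives were other scalings, filters and tools (DESeq2 1.42.0, limma 3.58.1), thinning, a depth covariate, a replicate block and leaving out libraries. The main edgeR test was tried on simulated counts, with the same variation between libraries set for all genes.

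In each role, up to 5 tested members with the highest mean count and up to 3 more with the smallest p are given in full, and up to 3 genes with the smallest p in each further list. The members and lists were chosen with earlier results of these data known. Promoter stretches, limited to bases upstream of the gene itself in RefSeq and GENCODE M21, are shown for up to 3 tested members of a role with the highest mean count and a motif in that stretch. Of replication members 2 met this and both are shown, and of mitosis members 4 met it and 3 are shown. Gene positions came from RefSeq (GRCm38.p6), and gene lengths and overlaps from GENCODE M21.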

Additional observations from a re-analysis of the deposited data

Results flagged for a closer look

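Of 42 groups of 6 values examined for 1 value far from the rest, 2 had one, where chance gives about 1 in 20 (2.1 of 42). Mcm2 in control 5 stood at 325 normalized CPM, with the next control at 180.0, and control 5 was the shallowest library. Cdkn1a in control 2 stood at 364 normalized CPM, with the next control at 140.4.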

How the results depend on the processing

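No member passed the threshold in any of the 22 alternatives. Over all genes, the 2 lower genes became 0 with DESeq2, with limma-voom, after thinning to the smallest total and with log2 depth as a covariate, 1 with the stricter filter and 7 with no filter, and ranged from 0 to 5 when 1 library was left out (5 without control 1, 4 without MSNBA 4, 1 without control 3, and 0 without any 1 of controls 4, 5 and 6 or MSNBA 1, 2, 3, 5 and 6). The number of higher genes went from 0 to 8 with no filter and to 4 without controls 2 and 4, and ranged from 0 to 1 when 1 library was left out. The stricter filter and thinning also left fewer genes to test (1319 and 1085). The causes of these changes were not tested. The medians when 1 library was left out ranged from -0.0063 to 0.21 for replication, from -0.12 to -0.023 for G1 to S and from -0.12 to 0.11 for mitosis. With no filter, the median of the genes tested in the main comparison moved from -0.0082 to 0.14. With depth as a covariate Rrm2 gave -0.51, Ccnd3 0.066, Tpx2 -0.43 and Ube2c -0.088. Tk1 went from -0.32 to -0.56, Mcm7 from -0.33 to -0.52 and Cdk1 to -0.46, and the medians were -0.041 for replication, 0.025 for G1 to S and -0.34 for mitosis, the first 2 of opposite sign to the main values. Tk1 then had an unadjusted p under 0.05 and an adjusted p of 0.467 by edgeR. With 1 library left out, Rrm2 ranged from -0.087 (without control 4) to 0.47 (without control 1), Lig1 ranged from -0.25 to 0.076 (without control 1) and Cdk1 from -0.23 to 0.30 (without control 6), with no adjusted p under the threshold. After thinning, 4 members were tested and none of mitosis, so the mitosis median has no value there.

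With the replicate number as a block, 0 genes were higher and 3 lower, no member passed, and the medians were 0.032, -0.076 and -0.065. Same-numbered libraries deviated together (r over 0.1) in 3 of 6 pairs, from -0.23 to 0.48, and 2 of 6 controls correlated best with their own number. These mixed values cannot tell whether same-numbered libraries shared a culture or a day, and the labels do not say.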
